A study of Mus musculus with 167 samples.

Results

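The miR-7 family was followed as 5 of the 1915 mature mouse miRNAs counted in every library: mmu-miR-7a-5p, mmu-miR-7b-5p, mmu-miR-7b-3p, mmu-miR-7a-1-3p and mmu-miR-7a-2-3p. The members were chosen by name, and the family was selected on the rise of mmu-miR-7b-5p in irradiated lung, so the lung values after irradiation are given as a description with no test. The libraries came from 35 mice of 2 strains, C3Hf/Sed/Kam (C3H) and C57Bl/6 (C57), which had either received whole thorax lung irradiation (WTLI) or had been sham irradiated. C3H tissues were collected at month 4 and C57 tissues at month 6, so that strain and time after exposure cannot be told apart. Lung, heart, brain and red blood cell (RBC) libraries each numbered 7 irradiated and 8 sham in C3H, with 5 irradiated and 15 sham in C57. White blood cell (WBC) libraries numbered 6 irradiated and 5 sham in C3H, with 5 irradiated and 11 sham in C57. All C3H mice were female. Of the C57 mice, 4 of the 5 irradiated were male, and the sham lung, heart, brain and RBC groups each held 8 males and 7 females. Lung, heart and brain RNA came from homogenised tissue, so fewer cells of a type and less RNA per cell cannot be told apart in any value below.

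miRNAs repress messenger RNAs chiefly through bases 2 to 8 of the mature strand, the seed, which pairs with sites in the target. Each miRNA precursor folds into a hairpin whose 5′ and 3′ arms can each be released, and the arm that is kept is mostly far more abundant than the other. miR-7 is an old and highly conserved family, known for high levels in brain and in neuroendocrine and pancreatic islet cells, and in brain it is known to bind the circular RNA Cdr1as at many sites, while miR-671 is known to cut that circular RNA.

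Sequences were taken from RefSeq (GRCm38.p6, the same build as mm10), where all 5 members were matched by name. The mature sequences are shown because the family's arms share or lack a seed, with bases 2 to 8 in capitals, 5′ to 3′.
mmu-miR-7a-5p: uGGAAGACuagugauuuuguugu
mmu-miR-7b-5p: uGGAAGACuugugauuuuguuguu
mmu-miR-7a-1-3p: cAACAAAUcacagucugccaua
mmu-miR-7a-2-3p: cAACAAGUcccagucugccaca
mmu-miR-7b-3p: cAACAAGUcacagccagccuca

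The 5p members shared 1 seed and differed at 1 of 23 aligned bases, A10U (miR-7a-5p has the first base, miR-7b-5p the second, counted from 1 at the 5′ end). miR-7a-5p is 23 bases long and miR-7b-5p 24, with a further u at its 3′ end. RefSeq gave a sequence for 1623 of the 1915 miRNAs counted, and 0 of those outside the family carried the same bases 2 to 8. The sum of the 5p members is called the seed sum here. Of the 3p arms, miR-7a-2-3p and miR-7b-3p shared bases 2 to 8, and miR-7a-1-3p differed from both there by A7G.

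Identical miR-7a-5p strands come from 2 hairpins, Mir7-1 (chr13:58392779-58392886, minus strand, in an intron of Hnrnpk, which is on the same strand) and Mir7-2 (chr7:78888277-78888373, plus strand, within no other GENCODE gene). miR-7b-5p comes from Mir7b alone (chr17:56242988-56243098, plus strand, within no other gene). The 3p arms tell the hairpins apart, which is why the precursors are shown, with both mature arms in capitals.
Mir7-1: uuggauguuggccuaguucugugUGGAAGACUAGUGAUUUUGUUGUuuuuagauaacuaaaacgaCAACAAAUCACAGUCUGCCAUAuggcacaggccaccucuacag
Mir7-2: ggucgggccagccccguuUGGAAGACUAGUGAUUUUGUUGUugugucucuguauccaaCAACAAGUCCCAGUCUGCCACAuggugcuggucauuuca
Mir7b: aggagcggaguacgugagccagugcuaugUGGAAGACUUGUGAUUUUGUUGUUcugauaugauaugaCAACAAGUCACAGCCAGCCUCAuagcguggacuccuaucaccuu

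Library totals ranged from 1794995 to 7865102 counts over the 167 libraries, and levels are given as RPM, the count divided by that total and scaled to parts per 1e6, as mean ± SD over the libraries of a group. The tissue labels were compared with defining miRNAs. miR-124-3p, a neuronal miRNA, was at 921 RPM or more in every brain library and at 27.2 RPM or less in every lung library. The cardiac miR-208a-3p was at 970 RPM or more in every heart library and 71.2 RPM or less in every lung library. The erythroid miR-451a overlapped between WBC (1540 to 60070 RPM) and RBC (2463 to 41120 RPM), so the WBC fraction also held erythroid miRNA.

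A member was taken as near zero in a tissue where its mean was under 10 counts in every group, and 11 pairs of a member and a tissue fell under that line and 14 did not. miR-7a-5p and miR-7a-1-3p were above it in all 5 tissues, miR-7b-5p in lung, heart and brain, and miR-7a-2-3p in brain. miR-7b-3p was near zero everywhere, with 155 counts over the 35 brain libraries, 1 count over the 35 lung libraries and 0 counts in heart, WBC and RBC. A count of 0 or 1 bounds the level only as far as counting error goes, since PCR copies are not independent molecules.

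In lung, miR-7b-5p was far higher after WTLI in both strains. In C3H it was at 6.33 ± 1.27 RPM in sham lungs (n = 8, from 4.34 to 8.86, median 6.40) and 203 ± 60.7 RPM in irradiated lungs (n = 7, from 92.5 to 260, median 231). In C57 it was at 23.1 ± 6.11 RPM in sham lungs (n = 15, from 10.8 to 33.1, median 24.8), and the 5 irradiated lungs held 306, 623, 857, 1066 and 1122 RPM. No irradiated lung overlapped a sham lung of its strain, and the lowest irradiated value was 10.4 times the highest sham value in C3H and 9.26 times in C57.

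The log2 difference of miR-7b-5p, irradiated minus sham, was 4.55 (SE 0.29) in C3H and 4.78 (SE 0.24) in C57 by limma. Sample titles carry a letter, A or B, whose meaning is not stated, and in C57 the libraries of letter A alone gave 3.95 and those of letter B 5.35. These are the values on which the family was chosen, and they carry no test. At a fold minimum of 2.25 and an adjusted p under 0.05, 9.71% of the 350 miRNAs tested were called in C3H lung and 6.0% in C57 lung. miR-7b-5p was among them by the choice of the family, and nothing is read from that. The strain difference of the response was -0.23 on the log2 scale (C3H minus C57, SE 0.37), also a description. By abundance within a library, miR-7b-5p ranked from 236 to 278 in C3H sham lungs and from 96 to 126 in irradiated lungs, and from 159 to 221 and from 54 to 90 in C57.

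**Figure D1:**
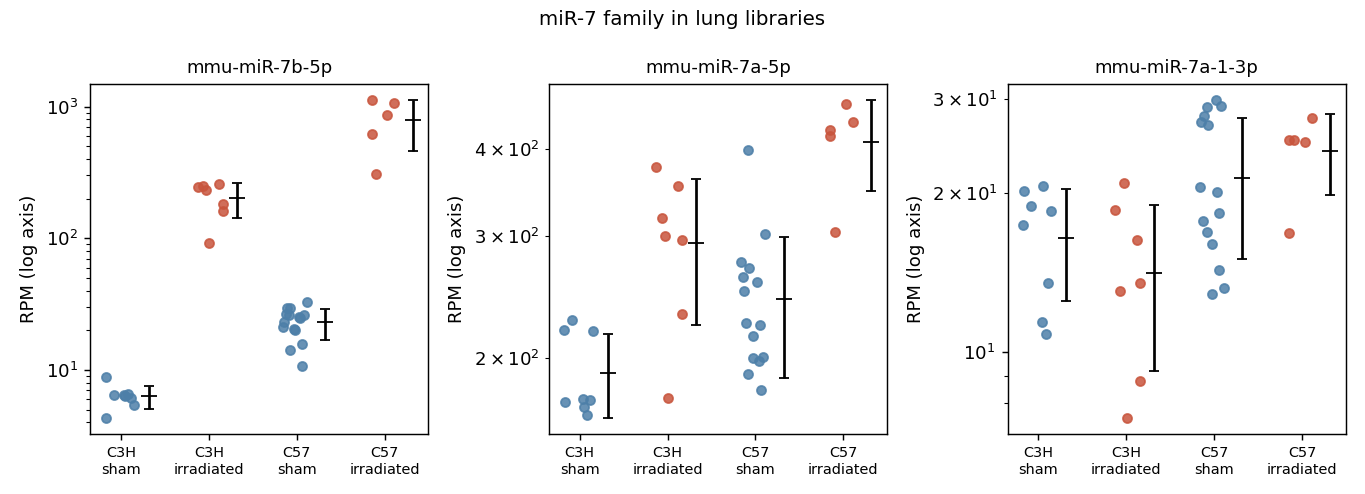
RPM of 3 members in each lung library (points, log axis, 1 panel per member with its own range) by strain and irradiation, with the group mean and SD beside the points. All irradiated miR-7b-5p values stood above the sham values of their strain, while miR-7a-5p and miR-7a-1-3p overlapped.

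miR-7a-5p, which differs from miR-7b-5p at 1 of 23 aligned bases and in length as given above, had a far smaller difference. It was at 190 ± 26.4 RPM in C3H sham lungs (n = 8, from 165 to 227, median 174) and 293 ± 69.7 RPM in irradiated lungs (n = 7, from 175 to 377, median 299), and 6 of the 7 irradiated lungs were above every sham lung. In C57 it was at 243 ± 56.0 RPM in sham lungs (n = 15, from 180 to 398, median 225), and the irradiated lungs held 304, 418, 425, 437 and 464 RPM, 4 of them above every sham lung. The log2 differences were 0.33 (SE 0.16) in C3H and 0.53 (SE 0.16) in C57, where the libraries of letter A alone gave 0.18 and those of letter B 0.86.

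The 3p arm of Mir7-1 overlapped between the groups. miR-7a-1-3p was at 16.4 ± 3.92 RPM in C3H sham lungs and 14.1 ± 4.88 RPM in irradiated lungs, and at 21.3 ± 6.35 and 24.0 ± 4.16 RPM in the C57 groups. Its log2 differences were -0.68 (SE 0.21) and -0.00 (SE 0.20) with quantile normalisation. With library size alone they were -0.25 and 0.21, and in C3H the letter A libraries alone gave -1.05 and letter B -0.36, so the size depended on the setting. The ratio of miR-7a-5p to miR-7a-1-3p, which needs no scaling, was higher after WTLI, by 0.85 on the log2 scale in C3H and 0.56 in C57. No count of miR-7a-2-3p was found in any of the 35 lung libraries, which hold 33320 counts of miR-7a-5p.

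The share of miR-7b-5p in the seed sum was 3.31 ± 0.917% in C3H sham lungs and 40.4 ± 3.33% in irradiated lungs. In C57 it was 8.74 ± 1.93% in sham lungs and 63.7 ± 9.19% in irradiated lungs, so that miR-7b-5p was the more abundant of the pair in all 5 (50.2% to 72.9%). The seed sum itself went from 197 ± 25.7 to 496 ± 128 RPM in C3H, a ratio of means of 2.52, and from 266 ± 59.4 to 1205 ± 385 RPM in C57, a ratio of 4.53. miR-7b-5p made up 65.7% of the increase of the mean sum in C3H and 82.2% in C57.

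**Figure D2:**
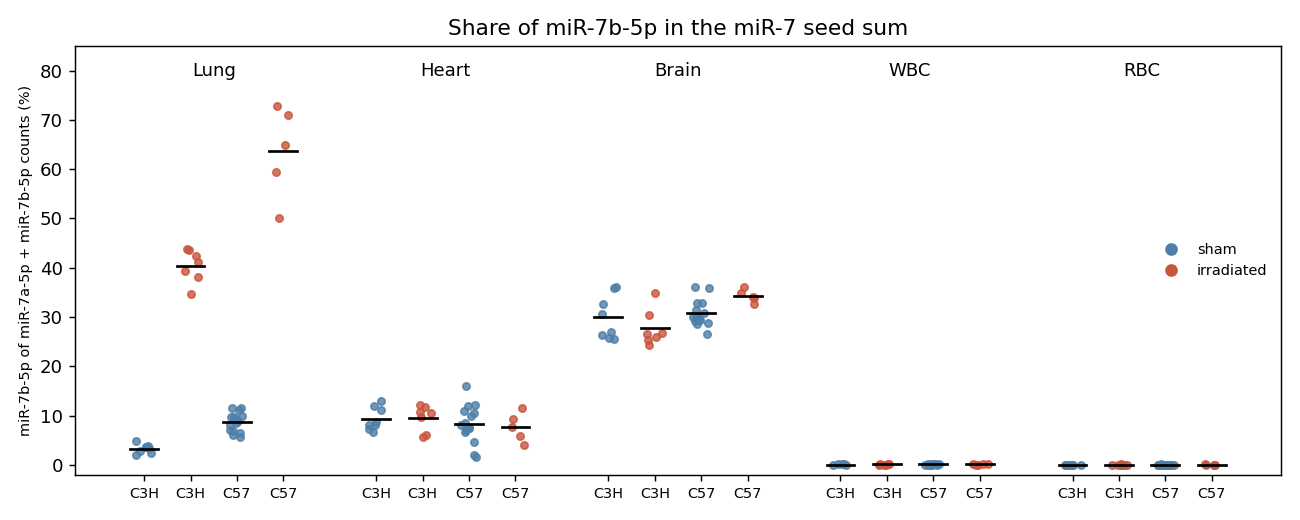
Share of miR-7b-5p in the summed counts of miR-7a-5p and miR-7b-5p (percent, points are libraries, lines are group means) by tissue, strain and irradiation. The share lay between 34.6% and 72.9% in irradiated lungs, between 24.3% and 36.2% in brain, and at 0.276% or less in WBC and RBC.

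The pair differs at 1 of 23 aligned bases, so their counts were compared in blood, where miR-7a-5p is abundant. Over the 35 RBC libraries there were 80414 counts of miR-7a-5p and 27 of miR-7b-5p, 0.0336% of the pair (95% exact binomial interval 0.0221% to 0.0488%, counting error only). Over the 27 WBC libraries 95 of the pair's counts were miR-7b-5p beside 89400 of miR-7a-5p, 0.106% (0.0859% to 0.130%). How reads fitting both were assigned is not given in the sources used here, and the part of misassigned reads in the lung values was not tested.

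The 3p arm of Mir7b was too rare to be compared at this depth. In brain there were 6373 counts of miR-7b-5p for each count of miR-7b-3p over all libraries. The irradiated lungs held 5107 counts of miR-7b-5p in C3H and 16435 in C57, beside 0 and 1 counts of miR-7b-3p.

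Brain miRNAs were looked for in lung, because brain held the family's highest levels. miR-9-5p, a neuronal miRNA at 43230 RPM or more in every brain library, was at 13.98 to 111 RPM in sham lungs and at 23.1 to 356 RPM in irradiated lungs, and was called higher in C57 only (the difference between strains was not tested). Brain libraries held 0.136 counts of miR-7b-5p per count of miR-9-5p. At that ratio the miR-9-5p in irradiated lungs would go with 3.12 to 7.34 RPM of miR-7b-5p in C3H and 4.59 to 48.2 RPM in C57, which is 5.63% or less of the miR-7b-5p measured in any irradiated lung. In sham lungs the same sum gives 1.89 to 10.1 RPM in C3H, from 29.9% to 202% of the measured level, and 1.91 to 15.0 RPM in C57, from 7.42% to 59.5%. The sum rests on miR-9-5p alone, and another neuronal miRNA would give other values. miR-124-3p was at 0 to 4.58 RPM in C3H sham lungs and 0.863 to 2.94 RPM in irradiated lungs. In C57 it was at 0 to 5.31 and 0.674 to 27.2 RPM. The part of brain RNA in the lung values was not tested.

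Lists of cell type markers were read in the same lung comparison. The summed level of the 7 neuronal miRNAs was 90.7 to 549 RPM in C3H sham and 152 to 209 RPM in irradiated lungs, and 72.0 to 220 and 141 to 652 RPM in C57. Of them, miR-129-5p was called higher in C3H, and miR-129-5p, miR-137-3p and miR-9-5p in C57. The summed level of the 4 neuroendocrine and islet miRNAs (miR-375-3p and the miR-183 cluster) was 1228 to 1374 RPM in C3H sham and 1902 to 2432 RPM in irradiated lungs, and 1340 to 2034 and 1694 to 2729 RPM in C57, with none of the 4 called. All 7 irradiated C3H lungs and 3 of the 5 irradiated C57 lungs were above every sham lung of their strain. Of the 3 pancreatic acinar miRNAs, only miR-216a-5p passed the count filter, and it was called higher in both strains at a summed level of the list of 13.8 RPM or less. The acinar sum was above every sham lung in 7 of 7 irradiated C3H lungs and 1 of 5 irradiated C57 lungs. None of the 5 epithelial, 5 leukocyte, 4 erythrocyte, 2 endothelial or 5 mesenchymal miRNAs was called in either strain. No marker was at 0 in all lung libraries.

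The ciliated list had 1 of 5 called higher in C3H, miR-449a-5p, and 0 in C57, with sums of 3408 to 5242 RPM in C3H sham and 2960 to 6186 RPM in irradiated lungs, and 6104 to 12710 and 5768 to 11050 RPM in C57. Of the 4 cardiac muscle miRNAs, miR-208a-3p and miR-499-5p were called lower in C3H and none in C57, with sums of 4759 to 7515 and 2569 to 5226 RPM in C3H and 2724 to 7697 and 2701 to 8560 RPM in C57. The endothelial sum was 380400 to 444400 RPM in C3H sham lungs and 297000 to 390100 RPM in irradiated lungs, of which 6 of 7 lay below every sham lung, while the C57 groups overlapped (212100 to 451400 and 285300 to 352300 RPM).

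In the remaining lists the ranges of sham and irradiated lungs overlapped in both strains, but many C3H irradiated lungs lay outside the sham range. The epithelial sum was 12590 to 22590 RPM in C3H sham and 8381 to 22740 RPM in irradiated lungs, with 1 of 7 above and 2 below, and 15670 to 37450 and 22660 to 32540 RPM in C57. The leukocyte sum was 3397 to 4826 and 2552 to 7019 RPM in C3H, where 4 of 7 irradiated lungs were above every sham lung and 2 below, and 2393 to 9748 and 5564 to 6829 RPM in C57. The erythrocyte sum was 181 to 1134 and 289 to 2823 RPM in C3H, with 2 of 7 above, and 106 to 2121 and 81.0 to 470.5 RPM in C57, with 1 of 5 below. The mesenchymal sum was 47410 to 57360 and 39900 to 69760 RPM in C3H, with 4 of 7 above and 1 below, and 48360 to 80590 and 49750 to 62840 RPM in C57. The part of any of these cell types in the miR-7b-5p values was not tested.

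miR-671-5p, the miRNA known to cut Cdr1as, was at 42.2 ± 6.47 RPM in C3H sham lungs and 54.5 ± 8.15 RPM in irradiated lungs, and at 46.1 ± 12.7 and 38.6 ± 17.1 RPM in C57. In C3H the ratio of mean RPM was 1.29, and 5 of 7 irradiated lungs were above every sham lung. In C57 none of 5 was above and 1 was below. From quantile normalised values its log2 differences were 0.01 (SE 0.21) in C3H and -0.53 (SE 0.21) in C57. The C3H difference is thus smaller than the RPM values show. As a description, neither miR-671-5p nor miR-671-3p (0.04, SE 0.48, and -0.67, SE 0.59) was called there.

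Outside the lung, no member was called after irradiation. Heart, which lies in the thorax, had 3 members tested in each strain, brain had 4, and WBC and RBC had 2 each, miR-7a-5p and miR-7a-1-3p. Called miRNAs were 6.73% of 312 in C3H heart, 0.962% in C57 heart, and 0.0% of 433 in brain, 291 in WBC and 229 in RBC in either strain, where 9 and 53, 20 and 12, and 43 and 14 miRNAs (C3H and C57) had an unadjusted p under 0.05. In heart 102 of the 312 miRNAs in C3H and 44 in C57 had an unadjusted p under 0.05. At an unadjusted p under 0.05 by limma, 1 of these 22 member tests passed, miR-7a-5p in C57 heart, and none of 387 refits with edgeR, DESeq2 or other settings gave a call. The test of the strain by irradiation interaction called 0.0% of miRNAs in heart, brain, WBC and RBC, where an unadjusted p under 0.05 was reached by 51, 21, 5 and 12 miRNAs, and its smallest adjusted p for a member was 0.446 (limma).

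Heart miR-7b-5p was at 6.31 ± 1.90 RPM in C3H sham hearts (n = 8, from 3.58 to 8.77, median 6.27) and 6.59 ± 2.15 RPM in irradiated hearts (n = 7, from 3.55 to 9.62, median 6.93). In C57 it was at 4.23 ± 2.92 RPM in sham hearts (n = 15, from 0.514 to 12.7, median 3.57), and the irradiated hearts held 2.32, 3.37, 5.61, 7.43 and 7.79 RPM. The groups overlapped in both strains. The log2 differences were 0.13 (95% interval -0.67 to 0.93, limma adjusted p = 0.84) and 0.26 (-0.62 to 1.15, adjusted p = 0.80). The counts behind them were low, 43 at most in a heart library.

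Heart miR-7a-5p in C57 was at 42.6 ± 8.60 RPM in sham hearts (n = 15, from 31.4 to 66.1, median 42.0) and at 54.5, 55.3, 59.9, 68.0 and 72.7 RPM in irradiated hearts. All 5 irradiated hearts were above the sham median and 2 were above every sham heart, but the log2 difference of 0.50 (SE 0.18) missed the threshold (limma adjusted p = 0.111). In C57 males alone it was 0.82 (limma adjusted p = 0.00473), still under the fold minimum. The seed sum in the same hearts was higher by 0.55 on the log2 scale (67.4 ± 9.83 RPM against 46.8 ± 11.3 RPM, with 1 of 5 irradiated hearts above every sham heart), and passed an exact two-sided permutation test (p = 0.00245, adjusted p = 0.0196 over 8 sums). It no longer passed on totals scaled by TMM (difference 0.54, adjusted p = 0.067), and the sham group held 7 females against 1 of 5 irradiated mice. In C3H hearts miR-7a-5p was 61.1 ± 14.5 RPM in sham and 62.5 ± 10.4 RPM in irradiated mice, a log2 difference of 0.18 (SE 0.18, limma adjusted p = 0.457).

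Brain held both 5p members at levels above every library of the other tissues, and no member was called there after WTLI. In C3H, miR-7b-5p was at 9551 ± 3891 RPM in sham brains (n = 8, from 6576 to 18500, median 8515) and 8502 ± 2654 RPM in irradiated brains (n = 7, from 6131 to 12440, median 7347). In C57 it was at 9845 ± 3405 RPM in sham brains (n = 15, from 6519 to 19790, median 9226), and the irradiated brains held 8764, 10387, 10552, 11355 and 11727 RPM. The groups overlapped, with log2 differences of -0.10 (95% interval -0.55 to 0.34) and 0.29 (-0.15 to 0.73) and limma adjusted p-values of 0.997 and 0.559.

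Brain miR-7a-5p differed by -0.03 (95% interval -0.38 to 0.31) in C3H and -0.02 (-0.36 to 0.32) in C57 on the log2 scale, with limma adjusted p-values of 0.997 and 0.969. Its levels were 21640 ± 4829 RPM in C3H sham and 21680 ± 3406 RPM in irradiated brains, and 21940 ± 6908 and 20210 ± 1964 RPM in C57. The ratio of miR-7b-5p to miR-7a-5p was higher in irradiated C57 brains by 0.23 on the log2 scale, which did not hold after adjustment (exact permutation p = 0.0127, adjusted p = 0.0889 over 14 ratios). In C57 males alone the difference was also 0.23 and passed (exact permutation, adjusted p = 0.0353 over the C57 ratios alone). In C3H brains the same ratio differed by -0.16 (exact permutation p = 0.301).

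In blood, miR-7a-5p was the only 5p member above the near-zero line. Its WBC level was 711 ± 201 RPM in C3H sham and 654 ± 159 RPM in irradiated mice, with a log2 difference of 0.18 (SE 0.35, limma adjusted p = 0.988). The sign of that difference, from quantile normalised values, is opposite to that of the RPM means, and with library size alone it was -0.12. In C57 WBC it was 766 ± 228 RPM in sham mice, and the irradiated mice held 722, 835, 1049, 1464 and 1644 RPM, 2 of them above every sham library, with a log2 difference of 0.61 (SE 0.31, limma adjusted p = 0.862). RBC levels were 905 ± 126 RPM in C3H sham and 711 ± 366 RPM in irradiated mice, of which 2 of 7 were below every sham library and 1 above. In C57 they were 539 ± 270.5 and 666 ± 297 RPM. In RBC the log2 difference was -0.22 in C3H (SE 0.15) and 0.26 in C57 (SE 0.15), and limma gave adjusted p-values of 0.403 and 0.92. Over the refits these differences ran from -0.56 to -0.13 and from 0.13 to 0.46. Against these values stood 0 to 11 counts of miR-7b-5p in any WBC library and 0 to 4 in any RBC library, irradiated or not.

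**Figure D3:**
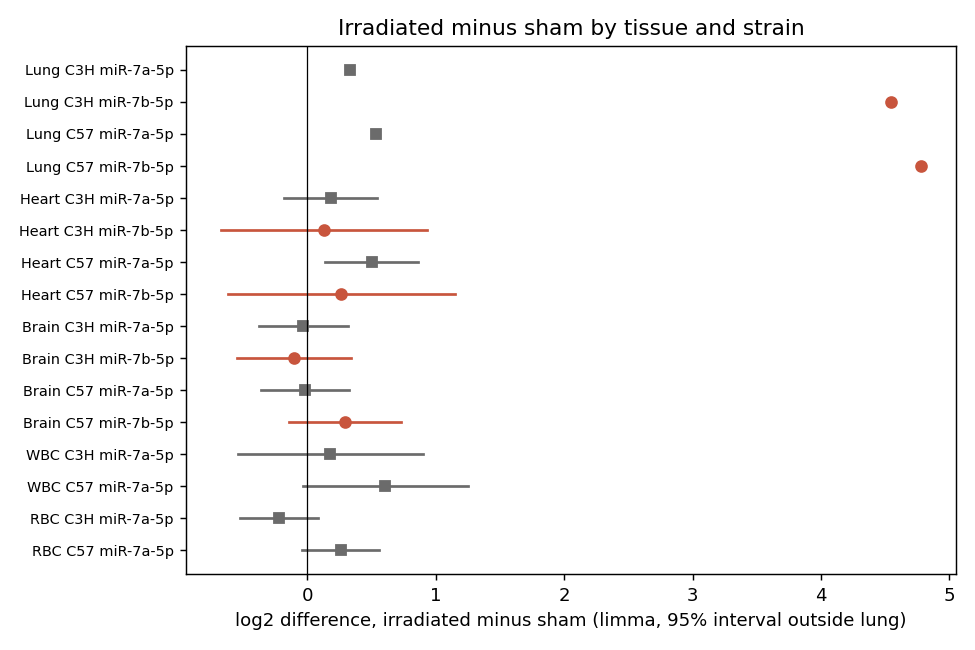
log2 difference, irradiated minus sham, of miR-7a-5p (squares) and miR-7b-5p (circles) by tissue and strain where the member was fitted, with the 95% interval of the limma fit outside lung. The lung miR-7b-5p values of 4.55 and 4.78 are those on which the family was chosen, and the other values lie between -0.22 and 0.61.

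The log2 ratio of miR-7a-5p to miR-7a-1-3p was compared within libraries. Its first term can come from Mir7-1 and Mir7-2 and its second from Mir7-1 alone, so the ratio is not the arm balance of 1 hairpin. In C57 it was higher in irradiated than in sham mice by 0.64 in heart, 0.81 in WBC and 0.59 in RBC, with adjusted exact permutation p-values of 0.0889, 0.0889 and 0.0568 over 14 ratios, none past 0.05. In C57 males alone the same ratio differed by 1.03 in heart, 1.14 in WBC and 0.66 in RBC (exact permutation, adjusted p = 0.0141, 0.0282 and 0.0282 over the C57 ratios alone). In C3H the differences were 0.41 in heart, 0.24 in WBC and 0.18 in RBC, with adjusted exact permutation p-values of 0.344 to 0.658. In brain, where miR-7a-5p came with 187 counts per count of miR-7a-1-3p against 4.50 in heart, the differences were 0.02 and 0.26 and neither passed.

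**Figure D4:**
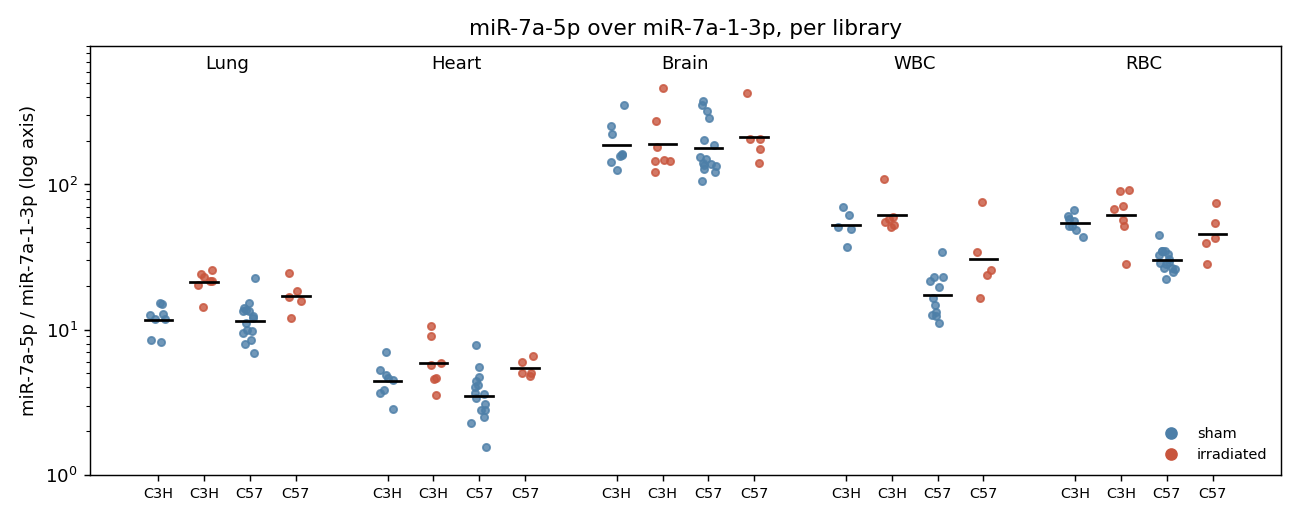
Ratio of miR-7a-5p to miR-7a-1-3p counts in each library, with 0.5 count added to each (log axis, points are libraries, lines are geometric means) by tissue, strain and irradiation. Ratios were highest in brain, from 106 to 460, and lowest in heart, from 1.56 to 10.7.

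Strains were compared in sham mice, C3H against C57 females in a fit that included sex. miR-7b-5p was the only member called, in lung, where 5.54% of 397 miRNAs were called: C3H was lower by 1.52 on the log2 scale (log2 difference -1.52, SE 0.29, limma adjusted p = 0.000212). Its mean was 6.33 RPM in C3H and 19.1 ± 5.86 RPM in C57 females (n = 7, from 10.8 to 26.8, median 20.2), and all 8 C3H lungs were below every C57 lung of either sex. The call held in all 10 alternative fits, with log2 differences of -1.82 to -1.32 (adjusted p-values of 4.78e-09 to 0.0175 by limma, edgeR or DESeq2). These sham lungs also entered the contrast on which the family was chosen, so the call and its refits are not independent of that choice. The miR-9-5p level went with up to 10.1 RPM of brain-ratio miR-7b-5p in C3H and 15.0 RPM in C57, as given above, and its part in the strain difference was not tested.

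miR-7a-5p and miR-7a-1-3p in the same sham lungs differed by -0.24 (limma adjusted p = 0.389) and -0.10 (adjusted p = 0.794). The within-library ratio of miR-7b-5p to miR-7a-5p, which does not depend on scaling, was lower in C3H lungs by 1.35 on the log2 scale (log2 difference -1.35, exact permutation p = 0.000311, adjusted p = 0.0014 over 9 ratios), with all 8 C3H lungs below all 7 C57 female lungs. It comes from the same sham lungs, so this ratio is not independent of the choice of the family either. In heart and brain that ratio differed by -0.05 and -0.07 (exact permutation, adjusted p = 0.912 for both).

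In the other tissues no member was called between strains, against 11.4% of 367 miRNAs called in heart, 3.04% in brain, 16.1% of 341 in WBC and 7.19% of 278 in RBC. RBC miR-7a-5p was higher in C3H by 0.53 on the log2 scale (905 against 665 RPM in C57 females, limma adjusted p = 0.00717), under the fold minimum, and the adjusted p was over 0.05 with DESeq2 (0.0709) and with library size alone (0.185). By letter, C57 females held 272 to 699 RPM in A and 814 to 1270 RPM in B. C3H sham mice held 833 to 1086 RPM in A and 704 to 958 RPM in B. WBC miR-7a-1-3p was at 13.2 RPM in C3H and 38.7 ± 4.37 RPM in C57 females (n = 4), and all 5 C3H libraries were lower. Its log2 difference was -0.76 with quantile normalisation (limma adjusted p = 0.145) and -1.56 with library size alone (adjusted p = 0.00198), and edgeR and DESeq2 gave -0.90 (adjusted p = 0.0357) and -0.96 (adjusted p = 0.00676), under the fold minimum. The ratio of miR-7a-5p to miR-7a-1-3p, free of scaling, was higher in C3H by 1.13 in WBC and 0.79 in RBC on the log2 scale (exact permutation, adjusted p = 0.0477 and 0.0014 over 9 ratios), with 5 of 5 and 7 of 8 C3H libraries above every C57 female.

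Sexes were compared in sham C57 mice, with females minus males as the difference. Called miRNAs were 2.27% of 397 in lung, 10.1% of 367 in heart, 4.87% in brain, 7.62% of 341 in WBC and 6.12% of 278 in RBC. Heart miR-7b-5p was called, at 5.47 ± 3.35 RPM in females (n = 7, from 3.39 to 12.7, median 4.11) and 3.15 ± 2.13 RPM in males (n = 8, from 0.514 to 5.81, median 2.75), a log2 difference of 1.25 (SE 0.40, limma adjusted p = 0.0174). The groups overlapped, and the difference was under the fold minimum with edgeR (1.09, adjusted p = 0.0222) and DESeq2 (1.01, adjusted p = 0.0168). Heart miR-7a-5p was also higher in females, by 0.61 (limma adjusted p = 0.0032), and WBC miR-7a-5p by 1.01 (adjusted p = 0.0412), both under the fold minimum.

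Across tissues, brain stood far above the rest in the 5p members. In sham mice miR-7a-5p was at 21830 ± 6148 RPM in brain (n = 23), 749 ± 215 RPM in WBC (n = 16), 666 ± 289 RPM in RBC, 225 ± 53.6 RPM in lung and 49.0 RPM (from 31.4 to 91.9) in heart (n = 23 each). All 23 sham brains were above every other sham library, the 16 WBC libraries were above every lung and heart, and RBC overlapped with WBC and lung. miR-7b-5p followed another order, at 9743 ± 3495 RPM in brain, 4.95 ± 2.75 RPM in heart and near zero in WBC and RBC, with sham lungs at 6.33 RPM in C3H and 23.1 RPM in C57. By abundance, miR-7a-5p ranked from 8 to 17 in brain libraries and miR-7b-5p from 14 to 29.

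**Figure D5:**
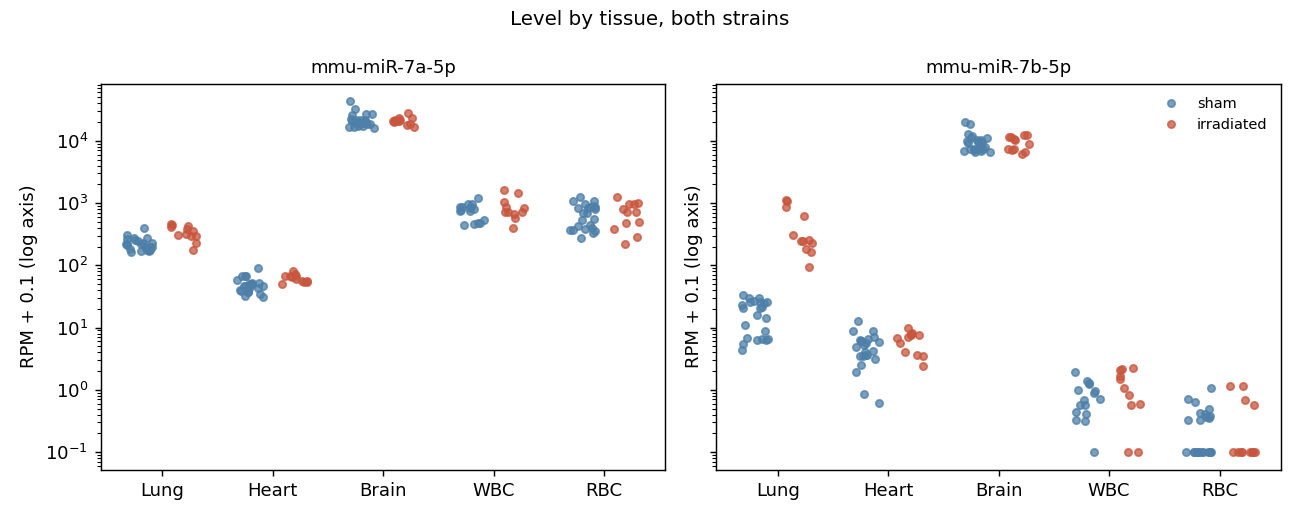
RPM of miR-7a-5p and miR-7b-5p in every library (log axis, 0.1 RPM added so that libraries with no count appear at 0.1) by tissue, sham beside irradiated, both strains together. miR-7a-5p is present in all blood libraries while miR-7b-5p is at or near 0 there, and irradiated lungs are separate from sham lungs for miR-7b-5p.

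Pairs of heart, brain, WBC and RBC were tested in sham mice with library size scaling, since tissues differed in most miRNAs. Of 542 miRNAs, 82.7% were called between brain and RBC, 79.3% between brain and WBC, 74.7% between heart and brain, 66.4% between heart and RBC, 69.0% between heart and WBC and 22.5% between WBC and RBC. miR-7a-2-3p outside brain and miR-7b-5p in WBC and RBC were near zero and entered the joint fit only through other tissues, so no count over the members is given. miR-7a-5p was called in every pair but WBC and RBC, and miR-7a-1-3p in the 3 pairs with brain.

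miR-7a-5p was higher in brain than in heart by 8.72 on the log2 scale (heart minus brain -8.72, SE 0.13), and miR-7b-5p was higher still (heart minus brain -10.93, SE 0.25), where the median of all miRNAs was -1.97. Brain minus RBC was 5.00 (SE 0.12) for miR-7a-5p and 2.82 (SE 0.16) for miR-7a-1-3p, where the median miRNA was 3.71, so the 3p arm was below that median. The latter difference turned to -1.80 with quantile normalisation, and brain minus WBC of miR-7a-1-3p went from 2.30 to -1.40. The difference of miR-7a-5p between WBC and RBC missed the threshold (WBC minus RBC, log2 difference 0.10, 95% interval -0.19 to 0.39, limma adjusted p = 0.568), and its sign flipped with TMM (-0.31).

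miR-7a-2-3p gave the only sign of Mir7-2 above the near-zero line, in brain, at 5.72 to 24.6 RPM, where miR-7a-1-3p was 8.29 times as abundant over all libraries. Outside brain its counts were 16 over 27 WBC libraries, 1 over 35 heart libraries and 0 in lung and RBC, although miR-7a-1-3p had 2377 counts in lung and 1986 in RBC. All 16 WBC counts were in C57 mice.

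The miRNAs whose group means were most like miR-7b-5p over the 20 groups were brain-rich: miR-135b-5p (Pearson r = 0.986), miR-376b-3p (0.975), miR-344-3p (0.964), miR-324-5p (0.960) and miR-708-5p (0.959), of 400 compared. In lung miR-135b-5p went from 2.78 to 18.7 RPM in C3H but from 81.6 to 42.6 RPM in C57. miR-7a-5p was most like miR-340-5p (0.975), miR-301a-3p (0.958), miR-491-5p (0.951), miR-103-3p (0.943) and miR-3069-3p (0.938). miR-7b-5p with miR-7a-5p gave 0.703, and these correlations are descriptions over groups that share animals.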

How the data were processed

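As described in the labels and methods, the authors made small RNA libraries with the QIAseq kit, aligned reads to mouse miRNAs (mm10) and deposited raw counts of mature miRNAs, 1 table per tissue, without normalisation. How reads fitting several miRNAs were assigned, and whether molecular identifiers were collapsed, is not given in the sources used here. All columns were matched to a sample by name. Members, lists and tests were chosen with earlier results of these data known. The miRNAs named are the members, miR-671, any other with their 5p seed, the markers, and the 5 most like each of miR-7b-5p and miR-7a-5p by Pearson's r of group means of log2(RPM + 1), among miRNAs at 10 RPM or more in a group.

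Counts were filtered with edgeR 4.0.16 (filterByExpr, count minimum 10, total minimum 15), transformed by voom with quantile normalisation and fitted in limma 3.58.1 (R 4.3.3), 1 model per tissue over the groups of strain and irradiation, with sex added for strain and sex contrasts. Tissues were fitted jointly with library size scaling. Adjusted p-values are Benjamini-Hochberg over all miRNAs tested. A call needs an adjusted p under 0.05 and a fold of 2.25 (1.17 on the log2 scale). The fit was tested on simulated data. Ratios (0.5 count added to each term) and seed sums were tested by exact two-sided permutation, and binomial intervals are Clopper-Pearson (SciPy 1.17.1). DESeq2 1.42.0, edgeR, other scalings and filters, C57 males alone and left-out libraries were alternatives. Titles carry a letter, A or B, of unstated meaning. The same 35 mice gave lung, heart, brain and RBC libraries, and 27 of them gave WBC libraries. The mouse thus pairs libraries across tissues, and a mouse's deviations in a pair of tissues correlated with medians from -0.115 to 0.207. No pair of libraries in a group agreed within sampling noise (chi-square per degree of freedom at least 15.5).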

Additional observations from a re-analysis of the deposited data

Results flagged for a closer look

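In 6 of the 42 groups of a member tested for a single far value (Dixon's test at the 95% level, which chance passes in about 1 in 20 groups), 1 library stood apart from the others. The highest C3H sham brain held 32770 RPM of miR-7a-5p, against 22460 RPM in the next. The same library was the highest C3H sham brain for miR-7b-5p, at 18500 RPM against 10240 RPM in the next, so these flags are not independent. The highest C3H sham heart held 91.9 RPM of miR-7a-5p, the next 68.2 RPM. Among irradiated C57 lungs the lowest library held 304 RPM of miR-7a-5p, the next 418 RPM. For miR-7a-1-3p the lowest irradiated C57 lung held 16.8 RPM, the next 24.9 RPM. Among irradiated C3H WBC libraries the lowest held 3.54 RPM of miR-7a-1-3p. The C57 sham groups, which hold the most libraries, were not tested this way. The highest C57 sham brain held 43310 RPM of miR-7a-5p, the next 26700 RPM. That library was also the highest for miR-7b-5p, at 19790 RPM, the next at 12780 RPM.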

How the results depend on the processing

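Lung miR-7b-5p kept its direction in every alternative run, from 4.24 to 4.93 on the log2 scale in C3H and from 3.95 to 5.35 in C57, where letter A alone, an alternative chosen after seeing the data as was letter B, gave 3.95. C57 lung miR-7a-5p was 0.18 with letter A and 0.86 with letter B. With the animal as a replicate block no call changed, and lung miR-7b-5p was 4.59 and 4.83. In C57 males alone the miR-7a-5p to miR-7a-1-3p ratio passed in heart (1.03), RBC (0.66) and WBC (1.14), and the miR-7b-5p to miR-7a-5p ratio passed in brain (0.23) and changed sign in heart (0.045). With TMM totals the C57 heart seed sum no longer passed (0.54), and the seed sums of C3H brain (0.012), C57 brain (-0.026) and C3H WBC (0.19) changed sign. In sham mice, members called went to 0 between sexes in heart with edgeR and 0 with DESeq2, and to 1 between strains in RBC with no fold minimum and 1 in WBC with library size alone. With at least 10 counts in every library, which leaves out the near-zero members, 1 was called in each tissue pair but WBC and RBC, with 0. For that pair the fits gave 3 with no fold minimum, 0 with TMM and 0 with quantile normalisation, but miR-7a-2-3p and miR-7b-5p, near zero in both tissues, were among the 3, and nothing is read from these counts.

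Outside lung, 12 of the 22 member differences after irradiation changed sign in some refit, with none called in any. Among those printed in the report these were C3H brain miR-7a-5p (0.065 with DESeq2, 0.046 with edgeR, 0.053 with TMM, 0.015 with library size alone, 0.044 with letter B, -0.11 to 0.019 without single libraries), C57 brain miR-7a-5p (0.033 with letter B, -0.079 to 0.016 without single libraries), C3H heart miR-7a-5p (-0.045 with letter B), C3H heart miR-7b-5p (-0.24 with letter B, -0.022 to 0.28 without single libraries) and C3H WBC miR-7a-5p (-0.092 with letter A, -0.12 with library size alone, -0.038 to 0.32 without single libraries). Sham lung miR-7a-1-3p between strains also turned (0.0012 with letter B). C57 lung miR-7a-1-3p, near 0, ranged from -0.089 to 0.21, and in C3H lung it ranged from -1.05 to -0.25. WBC minus RBC turned for miR-7a-5p (-0.37 with DESeq2, -0.33 with edgeR, -0.31 with TMM, -0.35 with quantile normalisation) and miR-7a-1-3p (-0.041 with DESeq2, -0.40 with quantile normalisation), and quantile normalisation turned miR-7a-1-3p for brain minus RBC (-1.80) and brain minus WBC (-1.40). The causes were not tested. Depth limits heart miR-7b-5p, with 43 counts or fewer per library, and the rare 3p arms.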
